A study of Mus musculus with 4 samples.

Results

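ATP-binding cassette (ABC) transporters were examined as a family in mouse colon tumours, as all gene symbols of the deposited count files made of Abc, a subfamily letter from a to g, a number and at most a final a or b. This rule found 50 genes among the 26214 counted symbols, and 40 of them held enough reads to be tested among 16637 tested genes. Levels came from polyadenylated RNA of tumour tissue in 2 libraries from Gsk3b IEC-/- mice and 2 from Gsk3b IEC+/+ mice, groups that differ by title in the Gsk3b state of the intestinal epithelium. In both groups the tumours followed azoxymethane, which damages DNA, and dextran sulfate sodium, a cause of colitis. The driver of the deletion, the deleted exons, and the strain, age and sex of the mice are not given in the labels. Whether each library is from its own mouse is not given either, so the p-values reflect only the spread among these samples, which may be technical.

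ABC proteins bind and hydrolyse ATP, and most use it to carry a substrate across a membrane. In the intestinal epithelium they are known for pumping drugs, conjugated compounds and plant sterols back into the lumen or on towards the blood, and for loading cholesterol onto lipoproteins. Members of subfamilies E and F carry no membrane segment and act in translation. Gsk3b encodes a kinase best known for phosphorylating beta-catenin, which is then degraded.

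Depth was even, with totals of 26599419 and 25472503 counts for the IEC-/- libraries and of 27135796 and 27218515 for the IEC+/+ ones. Gsk3b mRNA was at 152 and 149 CPM (the usual depth-scaled count, on TMM-normalised library sizes) in IEC-/-, against 170 and 157 CPM in IEC+/+ tumours (log2 fold change -0.12, edgeR quasi-likelihood adjusted p = 0.681). As the deleted exons were not stated and the tissue also holds other cells, this level does not check the labels, and the groups are meant below as the libraries so labelled. Epithelial markers were present in every library, at summed levels of 6270.2 and 5893 CPM in IEC-/- tumours against 11353 and 9729.6 CPM in IEC+/+ tumours. Of these 10 markers, 2 fell in IEC-/- and 0 rose, and 8 were lower at an unadjusted p under 0.05. Of all genes tested, 0.763% passed as lower at an adjusted p under 0.05, and 9.12% were lower at an unadjusted one. Of 8 goblet cell markers, 2 fell and 0 rose, with sums of 677 and 1399 CPM in IEC-/- tumours against 5609.9 and 3498 CPM in IEC+/+ tumours. Among fibroblast, pericyte, endothelial, macrophage, T cell and B or plasma cell markers 0 passed by edgeR, and 7 had an unadjusted p under 0.05. These lists held 5 to 10 tested markers each, and 16.6% of all genes tested had such a p. IEC-/- replicate 2 stood apart in B and plasma cell markers, which summed to 224 and 2543 CPM in IEC-/- tumours against 586 and 702 CPM in IEC+/+ tumours. Pericyte and smooth muscle markers summed to 443 and 443 CPM in IEC-/- tumours, against 665 and 358 CPM in IEC+/+ tumours. Fibroblast markers summed to 2276 and 1965 CPM in IEC-/- tumours, against 3482 and 2130 CPM in IEC+/+ tumours. IEC+/+ replicate 1 was thus the highest library in both lists. In tumour tissue, fewer cells of a type and less RNA per cell cannot be told apart.

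Of the ABC family, Abcb1a, which encodes a P-glycoprotein drug pump, fell in IEC-/-, and it was the single member that passed the test over all genes. It lay 3.39-fold lower in IEC-/- (log2 fold change -1.76, SE 0.23, edgeR quasi-likelihood adjusted p = 0.0479). This is 1 of 40 members tested (2.5%), where 147 of 16637 genes tested passed (0.884%), and 0.763% passed as lower. As higher, 0 members passed, against 0.12% of all genes. Other tests on the same counts called more or fewer members: 7 by DESeq2 (17.5%, against 7.77% of all genes), 6 by the exact test of edgeR (15%, against 5.3%), 0 by limma-voom (0.469% of all genes) and 2 of 47 with no filter on low counts (4.26%, against 1.82%). Without IEC-/- replicate 1 or 2, edgeR called 2 and 3 members (4.76% and 7.32%, against 4.24% and 3.32% of all genes). At an unadjusted p under 0.05 there were 8 members (20% of 40, against 16.6% of all genes tested). Of these 8, 5 were higher in IEC-/- (12.5%, against 7.5% of all genes) and 3 were lower (7.5%, against 9.12%). The share among members is thus close to that of genes at large. The higher members were the lipid transporter genes Abca1, Abcg1, Abcg8, Abca2 and Abcd2, and the lower ones the drug and conjugate efflux genes Abcb1a, Abcc3 and Abcg2. Over the 40 members the median log2 fold change was -0.077, against 0.011 over all genes tested, and 18 members had a fold change above 0 (45%, against 51.5%).

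**Figure D1:**
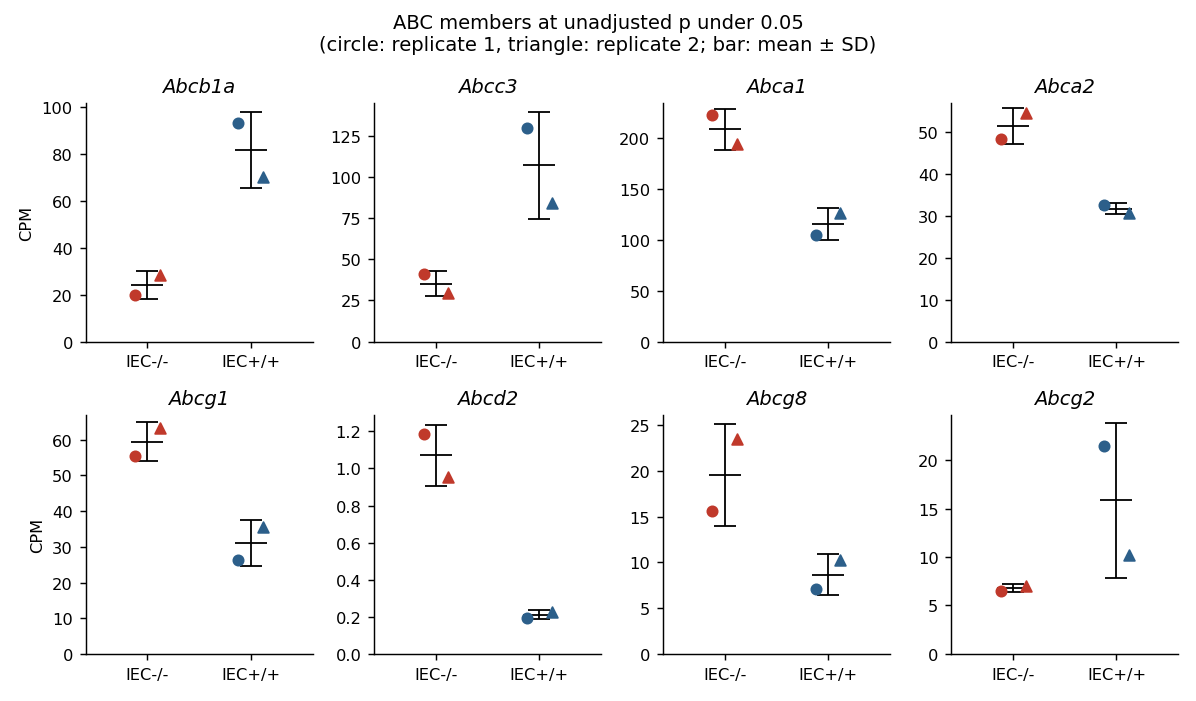
CPM of the 8 ABC members at an unadjusted p under 0.05, in order of p, with a linear y axis from 0 in each panel; each point is a library, and bars give the mean ± SD of 2 libraries. In each panel the IEC-/- libraries lie wholly above or wholly below the IEC+/+ libraries, which the choice by p makes likely. Abcb1a is the gene that passed the adjusted threshold, at 19.8 and 28.3 CPM in IEC-/- tumours against 93.0 and 70.0 CPM in IEC+/+ tumours.

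The groups did not overlap in CPM for 24 of 40 members (60%), against 48% of all genes tested. The IEC-/- libraries lay above for 9 members (22.5%, against 24%) and below for 15 (37.5%, against 24.1%). Over all 40 members tested, overlapping or not, 19 differed by less than 1.2-fold. A 2-fold or larger difference (an absolute log2 fold change of at least 1) was fitted for 5 members (12.5%), against 9.92% of all genes tested. Summed over all 50 genes, ABC transcripts amounted to 1846 and 1794 CPM in IEC-/- tumours, against 1943 and 1809.7 CPM in IEC+/+ tumours, and these sums overlapped.

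**Figure D2:**
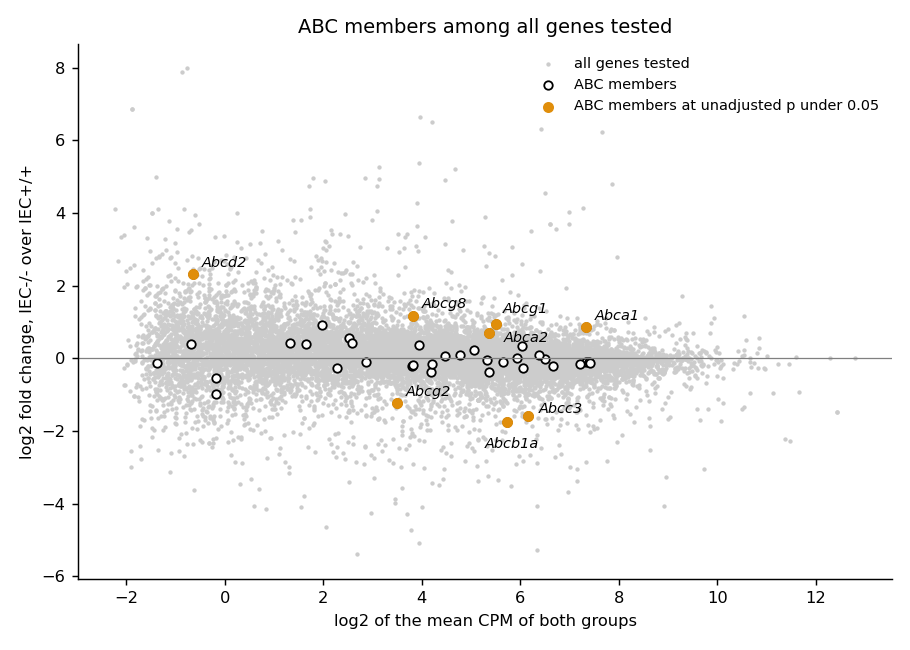
Log2 fold change of IEC-/- over IEC+/+ (y axis) against the log2 of the mean CPM (x axis) for the 16637 genes tested in grey, with the 40 ABC members as open circles and the 8 at an unadjusted p under 0.05 filled. Most members lie near 0 at every level, Abcd2 (2.32) is the highest member and Abcb1a (-1.76) the lowest.

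The drug and organic anion pumps form the first role, with 11 members that were all tested. Of these, 1 fell (Abcb1a), where 0.763% of all genes tested passed as lower. At an unadjusted p under 0.05, 2 more were lower, where 9.12% of all genes tested were. The median log2 fold change of the 11 was -0.10. Abcb1a, on chromosome 5 (8660077 to 8748575, GRCm38, plus strand), is a mouse counterpart of the human multidrug resistance gene, and its product expels lipophilic drugs at the apical membrane of enterocytes. It had 19.8 and 28.3 CPM in IEC-/- replicates 1 and 2, against 93.0 and 70.0 CPM in IEC+/+ replicates 1 and 2. Both IEC-/- libraries lay far below both IEC+/+ libraries, with means of 24.0 ± 6.01 CPM (SD) in IEC-/- tumours and 81.5 ± 16.2 CPM in IEC+/+ tumours (n = 2 each). The 95% interval of the log2 fold change was -2.34 to -1.18. As for every other gene called, the call was lost when either IEC+/+ library was left out, which leaves 1 library in that group. Without IEC+/+ replicate 1 the log2 fold change was -1.55, and without replicate 2 it was -1.95. DESeq2, run on all 4 libraries, also called Abcb1a, and limma-voom did not (adjusted p = 0.0559).

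Abcb1b, its closest paralog in the mouse, lies next to it on chromosome 5 (8798147 to 8866315), and Abcb4 follows (8893717 to 8959231). Abcb1b had 6.40 and 7.70 CPM in IEC-/- tumours, against 6.99 and 8.06 CPM in IEC+/+ tumours (log2 fold change -0.094, 95% interval -0.76 to 0.58, edgeR adjusted p = 0.908). The groups overlapped. Abcb1a was therefore counted 3.09 and 3.67 times as often as Abcb1b in the IEC-/- libraries, against 13.3 and 8.69 times in IEC+/+. How reads shared by these similar genes were counted is not recorded, which leaves the separate values of the pair uncertain. A gene model on the opposite strand, Gm42686, also covers 10.1% of the annotated exon bases of Abcb1a, and counting was not stated to use strand.

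The promoters of the pair are shown because the neighbours differ in level and in their difference between groups. Each window runs from 250 bases before to 50 after a RefSeq start on GRCm38.p6, 5′ to 3′ on the gene's strand, with the start at position 251. RefSeq starts Abcb1a further upstream (8567091) than the annotation above (8660077), so its window lies outside the gene model used for positions and lengths. Which start these tumours used was not tested. Capitals mark matches to the motifs searched, on either strand: GGGCGG (the GC box), TATAAA (the TATA box), CCAAT (the box of that name), CACGTG (an E-box), AGGTCA (the core site of many nuclear receptors), a direct repeat of AGGTCA with 1 or with 4 free bases between, and CTTTGAT (a TCF site). Each direct repeat contains the single AGGTCA.
Abcb1a promoter, chr5:8566841-8567140, plus strand: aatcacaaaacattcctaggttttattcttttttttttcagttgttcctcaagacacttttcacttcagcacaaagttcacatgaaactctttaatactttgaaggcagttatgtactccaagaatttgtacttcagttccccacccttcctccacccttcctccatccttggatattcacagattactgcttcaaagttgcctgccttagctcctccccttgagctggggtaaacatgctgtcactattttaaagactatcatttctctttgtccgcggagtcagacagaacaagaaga
Abcb1b promoter, chr5:8797897-8798196, plus strand: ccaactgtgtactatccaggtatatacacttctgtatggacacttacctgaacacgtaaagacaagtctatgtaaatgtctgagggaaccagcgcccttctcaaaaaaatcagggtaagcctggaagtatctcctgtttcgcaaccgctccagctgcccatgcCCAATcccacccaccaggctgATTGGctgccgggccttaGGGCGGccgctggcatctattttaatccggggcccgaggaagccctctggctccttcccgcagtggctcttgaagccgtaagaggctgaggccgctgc
The Abcb1a window held 40.3% G and C and no match to these motifs. The Abcb1b window held 55.0% G and C, with CCAAT sites at positions 164 and 185, that at 185 on the minus strand, and a GC box at 203. Of 32851 RefSeq promoter windows, 37.4% held a CCAAT and 35.7% a GC box, so either match is common.

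Abcc3 encodes an organic anion pump that moves glucuronide conjugates and bile acids across the basolateral membrane. It had 40.9 and 29.8 CPM in IEC-/- tumours, against 130 and 84.1 CPM in IEC+/+ tumours. Every IEC-/- value lay below every IEC+/+ value, with means of 35.3 ± 7.86 CPM (SD) in IEC-/- tumours and 107 ± 32.7 CPM in IEC+/+ tumours (n = 2 each). The difference of 3.03-fold (log2 fold change -1.60, SE 0.26) did not pass over all genes (edgeR adjusted p = 0.0707). It passed by DESeq2 and by the exact test of edgeR, and by the quasi-likelihood test when either IEC-/- library was left out (adjusted p = 0.0266 without replicate 1 and 0.0458 without replicate 2).

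Abcg2, the breast cancer resistance protein, exports urate, porphyrins and sulfated compounds at the apical membrane. It had 6.47 and 7.05 CPM in IEC-/- tumours, against 21.5 and 10.2 CPM in IEC+/+ tumours (log2 fold change -1.23, SE 0.39, edgeR adjusted p = 0.225). The IEC-/- libraries were alike and the IEC+/+ libraries differed by more than 2-fold from each other. Without IEC+/+ replicate 1, its highest library, the log2 fold change was -0.60. Abcb1a, Abcc3 and Abcg2, picked by p on these same counts, were lower in IEC-/-, and most markers of differentiated epithelium were lower too. The 10 colonocyte markers summed to 80.4 and 90.4 CPM in IEC-/- tumours, against 717 and 360 CPM in IEC+/+ tumours. Of these, 4 fell and 0 rose (0.763% of all genes tested fell), and the median log2 fold change was -3.28. At an unadjusted p under 0.05, 9 were lower, against 9.12% of all genes tested. The median over the 10 epithelial markers was -0.85. The part of these markers in the values of the 3 pump genes was not tested.

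The other 7 pump genes tested had log2 fold changes between -0.21 and 0.42. Abcc4, a pump of cyclic nucleotides and prostaglandins with the highest level of the role per length, had 162 and 148 CPM in IEC-/- tumours against 160 and 173 CPM in IEC+/+ tumours (log2 fold change -0.10, 95% interval -0.41 to 0.20). Abcc1, which exports glutathione conjugates, had 89.8 and 98.1 CPM in IEC-/- tumours against 114 and 102 CPM in IEC+/+ tumours (-0.21). The groups overlapped in Abcc4 and not in Abcc1, and neither passed (edgeR adjusted p = 0.745 and 0.484). Abcc2, the apical pump of conjugated organic anions, had 99.0 and 47.4 CPM in IEC-/- tumours against 64.7 and 50.8 CPM in IEC+/+ tumours. IEC-/- replicate 1 stood highest and IEC-/- replicate 2 lowest of the 4 libraries, so the groups overlapped. Abcc5, an exporter of cyclic nucleotides, had 36.0 and 36.2 CPM in IEC-/- tumours against 28.1 and 34.2 CPM in IEC+/+ tumours (0.21). Abcc10, a broad-specificity pump, had 18.7 and 16.5 CPM in IEC-/- tumours against 16.7 and 22.4 CPM in IEC+/+ tumours (-0.15). Abcc6, needed for ATP release from liver cells, had 3.09 and 2.63 CPM in IEC-/- tumours against 2.59 and 1.70 CPM in IEC+/+ tumours (0.42). None of these passed, and Abcc12 did not either, at 2.99 and 4.08 CPM in IEC-/- tumours against 3.67 and 1.74 CPM in IEC+/+ tumours (0.39).

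The role of cholesterol and sterol efflux, with relatives in subfamily G, held 6 genes. Their fold changes were above 0 for 4 and below 0 for 2, where 51.5% of all genes tested were above 0. Of the 6, all tested, 0 passed the test over all genes by edgeR. At an unadjusted p under 0.05 there were 3 higher in IEC-/- and 0 lower (against 7.5% and 9.12% of all genes tested). DESeq2 called the same 3. The median log2 fold change was 0.60, against 0.011 over all genes tested. Summed CPM of the 6 were 316 and 303 in IEC-/-, against 159 and 190 in IEC+/+, most of it from Abca1.

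Abca1 hands cholesterol and phospholipid to lipid-poor apolipoprotein, the first step of high-density lipoprotein formation. It lies on chromosome 4 (53030787 to 53159895, minus strand) and had 222 and 194 CPM in IEC-/- tumours against 104 and 127 CPM in IEC+/+ tumours. Both IEC-/- libraries were above both IEC+/+ libraries, with means of 208 ± 19.8 CPM (SD) in IEC-/- tumours and 115 ± 15.8 CPM in IEC+/+ tumours (n = 2 each). The log2 fold change was 0.85 (SE 0.15, 95% interval 0.47 to 1.23, edgeR adjusted p = 0.0782). It passed by DESeq2, by the exact test and, without IEC-/- replicate 2, by the quasi-likelihood test (adjusted p = 0.0390). Abcg1, which passes cholesterol to mature lipoprotein particles, had 55.5 and 63.3 CPM in IEC-/- tumours against 26.4 and 35.6 CPM in IEC+/+ tumours. Again the groups did not overlap (log2 fold change 0.94, SE 0.18, edgeR adjusted p = 0.0944).

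Abcg5 and Abcg8 encode partners that join into a single sterol exporter of the apical membrane. Their annotated genes overlap on opposite strands of chromosome 17 (84658234 to 84683011 for Abcg5, 84676302 to 84700333 for Abcg8). Abcg8 had 15.6 and 23.5 CPM in IEC-/- tumours against 7.06 and 10.3 CPM in IEC+/+ tumours (log2 fold change 1.17, SE 0.31, edgeR adjusted p = 0.164). Abcg5 had 15.8 and 18.6 CPM in IEC-/- tumours against 12.9 and 14.1 CPM in IEC+/+ tumours (0.36, SE 0.21, adjusted p = 0.462). Neither pair of groups overlapped, and the difference was larger in Abcg8. Per length, Abcg8 stood at 0.712 and 0.913 of the Abcg5 level in IEC-/-, against 0.398 and 0.527 in IEC+/+. The annotated exons of the pair share 82 bases on opposite strands, 2.2% of those of Abcg8, whose reads cannot be assigned without strand.

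The promoter windows of Abca1 and of the Abcg5 and Abcg8 pair are shown, since these sterol efflux genes had higher values in IEC-/-. Capitals and positions are as above.
Abca1 promoter, chr4:53159846-53160145, minus strand: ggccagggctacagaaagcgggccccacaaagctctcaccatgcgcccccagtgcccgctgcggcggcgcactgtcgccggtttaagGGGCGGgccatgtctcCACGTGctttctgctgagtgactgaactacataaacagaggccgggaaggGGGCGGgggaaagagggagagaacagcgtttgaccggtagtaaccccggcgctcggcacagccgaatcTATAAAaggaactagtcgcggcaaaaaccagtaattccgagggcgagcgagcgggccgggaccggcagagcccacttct
Abcg5 promoter, chr17:84682962-84683261, minus strand: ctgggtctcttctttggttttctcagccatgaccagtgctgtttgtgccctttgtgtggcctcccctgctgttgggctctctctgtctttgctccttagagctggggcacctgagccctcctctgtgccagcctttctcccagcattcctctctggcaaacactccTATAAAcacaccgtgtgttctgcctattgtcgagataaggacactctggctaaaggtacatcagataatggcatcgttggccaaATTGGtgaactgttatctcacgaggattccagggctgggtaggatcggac
Abcg8 promoter, chr17:84682871-84683170, plus strand: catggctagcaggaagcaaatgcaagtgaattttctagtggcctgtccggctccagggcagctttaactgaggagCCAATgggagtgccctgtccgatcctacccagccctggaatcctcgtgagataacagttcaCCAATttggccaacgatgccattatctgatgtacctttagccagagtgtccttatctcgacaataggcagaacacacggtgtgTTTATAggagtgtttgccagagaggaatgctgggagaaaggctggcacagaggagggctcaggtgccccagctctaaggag
The Abcg5 and Abcg8 windows overlap by 209 bases, read from opposite strands. RefSeq gives Abcg8 a further start, at the annotated start of the gene (84676302). The window of that start held 65.0% G and C and no match to these motifs, and is not printed. In the Abca1 window, GC boxes began at positions 88 and 154, a CACGTG at 104 and a TATAAA at 222. A CACGTG was found in 7.15% and a TATAAA in 13.6% of all windows. The AGGTCA repeat with 4 free bases, the form bound by the oxysterol receptors, matched exactly in 0 of the 45 windows of 38 ABC members and in 5 of all 32851 (0.0152%). A single AGGTCA was in 7 of the 45 (15.6%, against 16.3% of all), and a GC box in 21 (46.7%, against 35.7%). The TCF letters CTTTGAT were in 0 of the 45, against 3.73% of all windows. The search took exact letters only, so a repeat that departs from them, in the Abca1 window or any other, was not marked. A match, or the lack of one, says nothing of binding.

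Abcg4, a sterol transporter best known from brain, had 0.647 and 0.801 CPM in IEC-/- tumours against 1.27 and 0.832 CPM in IEC+/+ tumours (log2 fold change -0.54, SE 0.54). Abcg3 had 6.11 and 2.74 CPM in IEC-/- tumours against 7.60 and 3.03 CPM in IEC+/+ tumours (-0.26, SE 0.59). Its libraries of a group differed by more than the groups did. Macrophages are rich in Abca1 and Abcg1, and the 8 macrophage markers summed to 1288 and 899 CPM in IEC-/- tumours, against 772 and 648 CPM in IEC+/+ tumours. Of these 8, 0 passed by edgeR. At an unadjusted p under 0.05, 3 were higher and 0 lower, against 7.5% and 9.12% of all genes tested. The median log2 fold change of the list was 0.45, and the part of these cells in the values of Abca1 and Abcg1 was not tested.

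**Figure D3:**
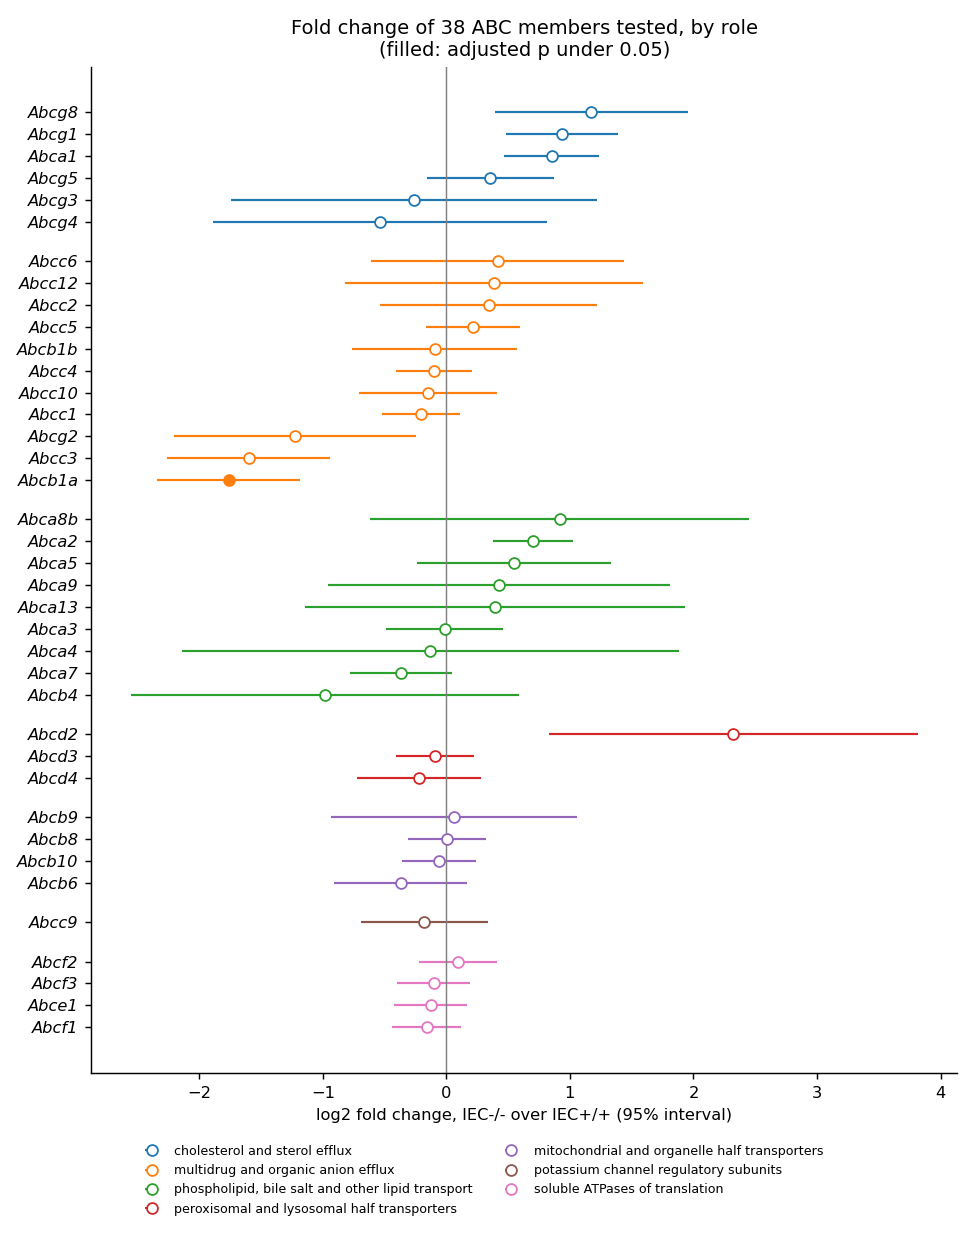
Log2 fold change of IEC-/- over IEC+/+ with its 95% interval (x axis) for 38 of the ABC members tested, grouped and coloured by role and sorted within it; filled points passed an adjusted p under 0.05. Abcd2, Abcg8, Abcg1, Abca1 and Abca2 have intervals wholly above 0, and Abcb1a, Abcc3 and Abcg2 wholly below. The intervals are not adjusted over all genes tested, so those that exclude 0 are the members at an unadjusted p under 0.05. The translation ATPases lie within -0.16 to 0.094.

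Transporters of other lipids, with bile salt pumps, make up 18 members, of which 9 were tested. Of the 9, 0 passed over all genes by edgeR, and 1 was higher at an unadjusted p under 0.05 (against 7.5% of all genes tested). That gene was Abca2, a lysosomal and endosomal lipid transporter on chromosome 2 (25428703 to 25448540, plus strand). It had 48.3 and 54.4 CPM in IEC-/- tumours against 32.6 and 30.7 CPM in IEC+/+ tumours. Libraries of a group were close and the groups well apart (log2 fold change 0.70, SE 0.13, edgeR adjusted p = 0.0864). It passed by DESeq2 and by the exact test. Abca3, which loads phospholipid into the lamellar bodies of lung cells, was the most counted of the role, at 93.7 and 86.2 CPM in IEC-/- tumours against 106 and 75.2 CPM in IEC+/+ tumours (-0.014). A further gene on the opposite strand, D330041H03Rik, covers 9.8% of its exon bases. The remaining 7 had log2 fold changes from -0.98 (Abcb4, the phosphatidylcholine floppase of the bile canaliculus) to 0.92 (Abca8b). The value of Abca8b came from IEC-/- replicate 2, at 8.01 CPM, against 2.34 CPM in IEC-/- replicate 1 and 2.93 and 2.54 CPM in IEC+/+ tumours. Its reads may be shared with Abca8a, a close paralog. Abca7, a phospholipid transporter, had a log2 fold change of -0.37, Abca5 0.54, Abca9 0.42, Abca13 0.40, and Abca4, the retinal transporter, -0.13.

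Of the subfamily D genes of peroxisome and lysosome 4 of 4 were tested, and 0 passed by edgeR. At an unadjusted p under 0.05, 1 was higher (against 7.5% of all genes tested). Abcd2, which imports very-long-chain fatty acyl-CoA into peroxisomes, had the largest fold change of the family and a low level. It was counted 33 and 25 times in IEC-/-, against 5 and 6 times in IEC+/+, or 1.19 and 0.953 CPM in IEC-/- tumours against 0.193 and 0.227 CPM in IEC+/+ tumours. The groups did not overlap, and the fold was 5.01 (log2 fold change 2.32, SE 0.60, 95% interval 0.83 to 3.82, edgeR adjusted p = 0.156). It passed by the exact test (adjusted p = 0.0204), and DESeq2 gave it no adjusted p. Abcd3, which imports branched-chain and bile acid precursors, had 159 and 166 CPM in IEC-/- tumours against 185 and 162 CPM in IEC+/+ tumours (-0.094), and Abcd4, of cobalamin export from lysosomes, had a log2 fold change of -0.22. The 95% intervals of both included 0, and that of Abcd4 ran from -0.72 to 0.28.

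Transporters of mitochondria and other organelles, 5 genes of subfamily B, had log2 fold changes between -0.37 and 0.060, and 0 passed by edgeR at an adjusted or an unadjusted p under 0.05. Abcb6, a porphyrin transporter of which 55.2% of the exon bases are shared with the model Gm29253 on the same strand, had a log2 fold change of -0.37, Abcb10, of haem synthesis, -0.061, and Abcb8 0.0039. Abcb9, a lysosomal peptide transporter, had 15.8 and 29.4 CPM in IEC-/- tumours against 15.6 and 27.8 CPM in IEC+/+ tumours, so that the libraries of a group differed far more than the groups (0.060, SE 0.40).

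Of the potassium channel subunits, Abcc9, which pairs with the Kcnj8 channel in vascular cells, had 13.8 and 12.7 CPM in IEC-/- tumours against 14.0 and 16.0 CPM in IEC+/+ tumours (log2 fold change -0.18, edgeR adjusted p = 0.732). Its partner Kcnj8 had 10.2 and 13.2 CPM in IEC-/- tumours against 16.2 and 16.7 CPM in IEC+/+ tumours (-0.50, adjusted p = 0.358). The soluble ATPases of translation were 4 genes with log2 fold changes from -0.16 to 0.094, and 0 passed by edgeR at either threshold. Abce1, which splits ribosomes after termination, had 162 and 167 CPM in IEC-/- tumours against 188 and 171 CPM in IEC+/+ tumours (-0.13, 95% interval -0.42 to 0.17). Abcf1 had a log2 fold change of -0.16, Abcf3 of -0.10 and Abcf2 of 0.094. These intervals were narrow, and the bound farthest from 0 among the 4 was -0.44, for Abcf1.

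The 10 members that were not tested had at most 20 counts in any library. Abca15, Abca16 and Abcb5 had 0 counts in all 4 libraries, and 3 counts, the limit that a count of 0 allows, would be 0.108 to 0.116 CPM. Abca17 had 1 count, in IEC+/+ replicate 2. Abcb11, the bile salt export pump of liver, had 0 and 1 counts in IEC-/- against 6 and 7 in IEC+/+. Abca8a had 7 and 0 counts in IEC-/- against 20 and 4 in IEC+/+, and Abca14 had 2 and 12 in IEC-/- against 2 and 1 in IEC+/+. Abca12, a lipid transporter of the epidermis, had 2 and 9 counts in IEC-/- against 0 and 6 in IEC+/+, Abca6 0 and 2 in IEC-/- against 3 and 0 in IEC+/+, and Abcc8, the channel subunit of pancreatic beta cells, 1 and 1 in IEC-/- against 1 and 5 in IEC+/+. These counts are too few for a comparison.

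Per kilobase of annotated exon, the highest ABC levels were those of Abcf2, Abcf1 and Abce1 of translation, the peroxisomal Abcd3 and the efflux pump Abcc4. Abcf2 and Abcf1 had means of 33.6 and 31.7 CPM per kilobase in IEC-/-, against 31.5 and 35.5 in IEC+/+, followed in both groups by Abce1, Abcd3 and Abcc4. The sixth place of the 50 differed between groups. Abca1 held it in IEC-/-, at 20.1 CPM per kilobase, and ranked 11 in IEC+/+, at 11.1. In IEC+/+ Abcc3 held it, at 18.8 CPM per kilobase, with Abcb1a at rank 7 (14.9). In IEC-/- Abcc3 ranked 17 (6.20) and Abcb1a ranked 21 (4.39). Libraries of Abcd3 and Abcc4 overlapped in both groups, and those of Abcf2 and Abcf1 overlapped in IEC-/-, whereas in IEC+/+ Abcf1 lay above Abcf2.

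**Figure D4:**
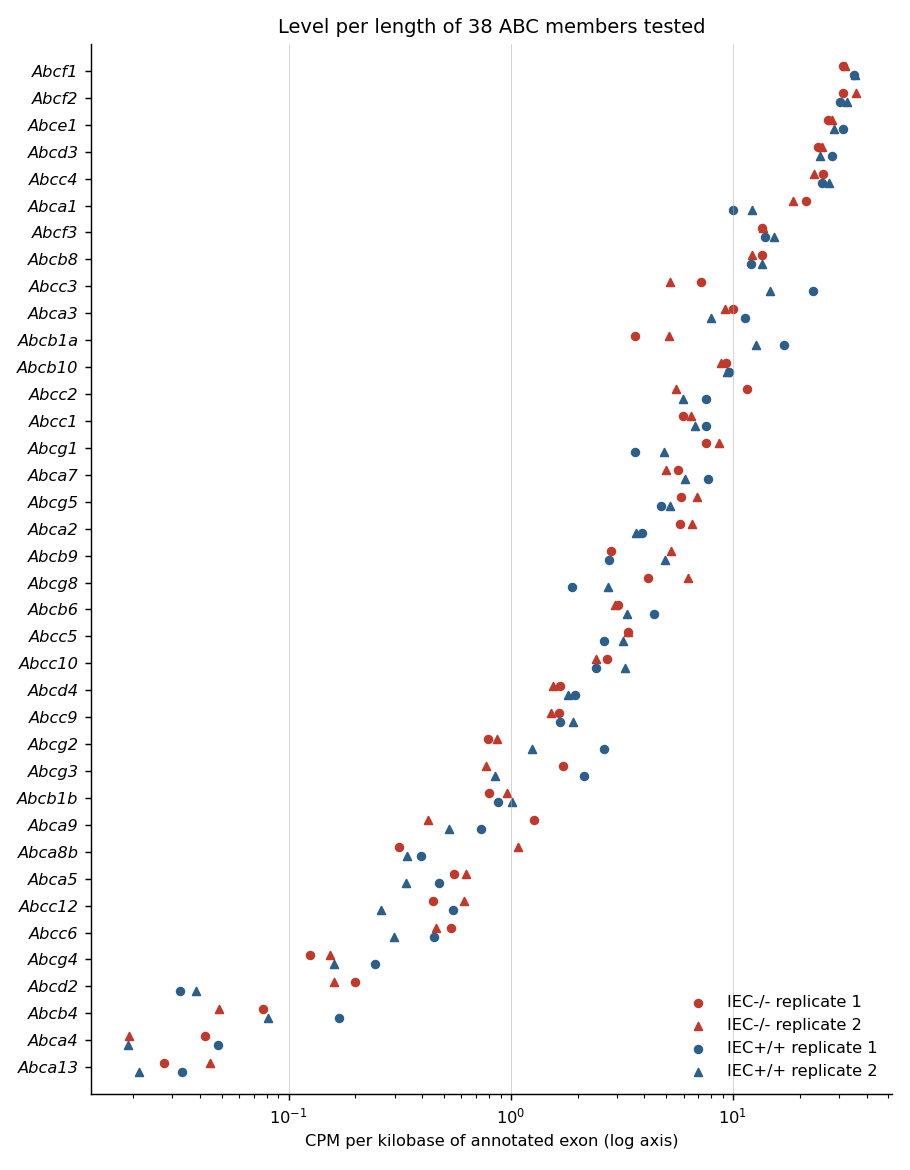
CPM per kilobase of annotated exon (x axis, log scale) in each library for 38 of the ABC members tested, ordered by their mean over both groups. Levels span from means of 0.030 (Abca4) to 33.6 (Abcf2) in IEC-/-, and the groups stand clearly apart at Abcd2, Abcb1a, Abcc3, Abcg8, Abcg1 and Abca1.

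Transcription factors known to control ABC genes were examined alongside, as a list of 18 that were all tested. Of these, 1 fell and 0 rose, and at an unadjusted p under 0.05 there were 8 lower and 1 higher (against 9.12% and 7.5% of all genes tested). The gene that fell was Nr1i2, the pregnane X receptor, a xenobiotic sensor known to induce Abcb1a. It had 15.9 and 12.6 CPM in IEC-/- tumours against 39.9 and 36.1 CPM in IEC+/+ tumours (log2 fold change -1.42, SE 0.19, edgeR adjusted p = 0.0479). The groups were well apart, and the call, like every other, ended without either IEC+/+ library. Chosen after their values were seen, the bile acid receptor gene Nr1h4 had a log2 fold change of -1.73 (adjusted p = 0.0661), Vdr, the vitamin D receptor gene, -1.20 (0.0810), and the intestinal factor genes Cdx2 and Hnf4a -1.95 (0.0986) and -0.96 (0.113). Of the oxysterol receptors, which induce Abca1 and Abcg1, Nr1h2 had 84.8 and 82.7 CPM in IEC-/- tumours against 74.8 and 89.8 CPM in IEC+/+ tumours (0.026), and Nr1h3 had 8.56 and 5.30 CPM in IEC-/- tumours against 10.9 and 9.16 CPM in IEC+/+ tumours (-0.53, adjusted p = 0.482).

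**Figure D5:**
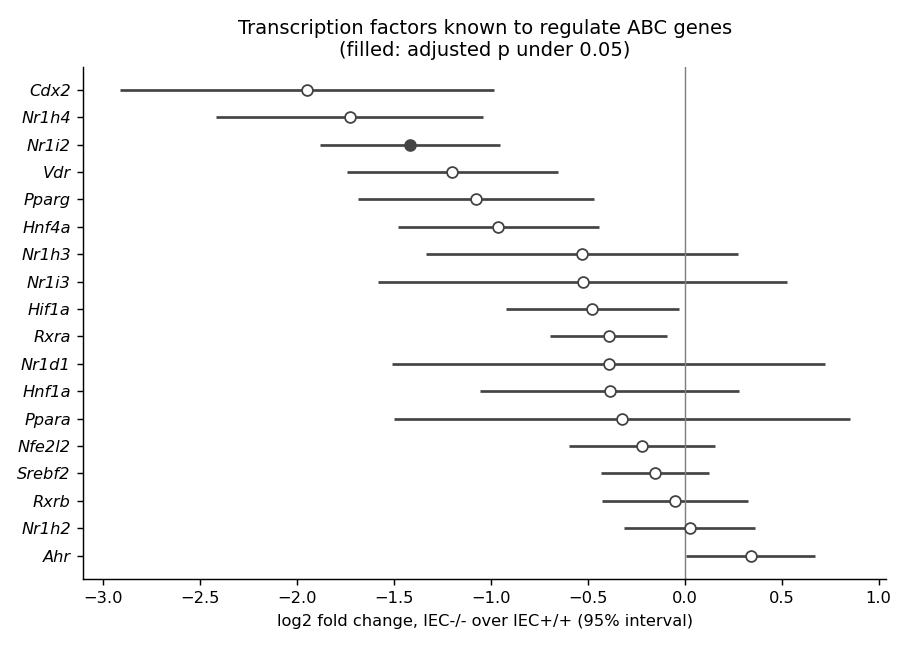
Log2 fold change of IEC-/- over IEC+/+ with its 95% interval (x axis) for 18 transcription factor genes known to control ABC genes; the filled point passed an adjusted p under 0.05. Nr1i2 is at -1.42, Nr1h2 at 0.026, and Ahr, at 0.34, is the highest.

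Partner genes of the transporters were mostly not called. Among 15 tested genes of lipid efflux and uptake, 1 fell and 0 rose, and at an unadjusted p under 0.05 there were 2 higher and 1 lower. Apob, the structural protein of chylomicrons, fell, with 6.22 and 10.5 CPM in IEC-/- tumours against 103 and 66.7 CPM in IEC+/+ tumours (log2 fold change -3.35, SE 0.34, edgeR adjusted p = 0.0403). By edgeR 0 of 11 peroxisomal, 0 of 11 mitochondrial and 0 of 10 ribosome recycling and initiation partners passed. At an unadjusted p under 0.05 the peroxisomal list had 1 higher and 1 lower, the mitochondrial 0 and 1, and the ribosomal 0 and 1. Of all genes tested, 7.5% were higher and 9.12% lower at that threshold. The smallest p of the mitochondrial list belonged to Alas1 of haem synthesis (log2 fold change -0.47), and that of the ribosomal list to the initiation factor gene Eif2s2 (-0.63). The remaining ABC proteins by sequence, whose symbols lie outside the rule, were Cftr, Tap1 and Tap2. Cftr, the chloride channel gene, had 32.9 and 34.0 CPM in IEC-/- tumours against 50.4 and 36.1 CPM in IEC+/+ tumours (-0.37, edgeR adjusted p = 0.408).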

How the data were processed

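The authors deposited raw counts of reads for each gene, as whole numbers, in 1 file per library. Per the submitters' processing notes, tools included TopHat, edgeR and limma, and the build was mm10; their roles, the counter, the annotation and any strand setting are not given in the sources used here. From the deposited counts, IEC-/- was compared with IEC+/+ by the quasi-likelihood F-test of edgeR 4.0.16 in R 4.3.3 (TMM scaling, the default filter, no covariate), with Benjamini-Hochberg adjustment over 16637 genes and a threshold of 0.05. SEs were derived from the F statistic, and intervals cover 95%. Members were grouped by known role; values are printed for each member at an unadjusted p under 0.05, for every tested efflux and sterol gene and for the most counted gene of each other role. Values of some genes are not reported here. Of marker and partner genes, those that passed are named, or else that with the smallest p, and others only after their values were seen. The members and lists were chosen with earlier results of these data known. Exon lengths and positions are those of GENCODE M21 (GRCm38), in which 50 of 50 members matched by symbol, and promoter sequences those of RefSeq (GRCm38.p6), with windows for 38. The test was checked on simulated counts. Alternatives were RLE scaling, DESeq2 1.42.0, the exact test of edgeR, limma-voom 3.58.1, 2 other filters, a replicate term and leaving out each library. No library was a repeat of another (chi-square per degree of freedom of counts 33.8 to 128).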

Additional observations from a re-analysis of the deposited data

How the results depend on the processing

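The count of ABC members that passed was 1 in the analysis reported, 7 by DESeq2 (7.77% of all genes, 1293), 6 by the exact test (5.3%, 882), 0 by limma-voom (0.469%, 78, with 8 members at an unadjusted p under 0.05) and 2 with no filter (1.82%, 376). With a library left out, edgeR called 0 to 3 members, 5 to 10 at an unadjusted p under 0.05, and 0 to 729 of all genes. The 0 came without either IEC+/+ library, where 5 and 8 members had an unadjusted p under 0.05. The share of lower genes among all calls was 86.4%, against 62.7% by DESeq2, 64.2% by the exact test and 52.8% without IEC-/- replicate 1. RLE scaling and the filter of 10 counts in 2 libraries kept the count of 1, and the median of members ran from -0.10 to -0.0015 over the alternatives. The 8 members at an unadjusted p under 0.05 kept their sign in all 11 alternatives. They were picked by p on these same counts, and their groups do not overlap, so leaving out a library could hardly change a sign.

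Replicate numbers are shared by title only, and the deviations of same-numbered libraries correlated at 0.16, so no pairing was assumed. With the replicate block, 211 genes passed and 1 member, which was Abcc3 (adjusted p = 0.0287), with Abcb1a at 0.0610.

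Among 38 members, signs changed for 12, none past the threshold in the analysis reported, in 20 of 418 values. Abca3 was at 0.0076 by limma-voom and 0.0064 with the block. With a library left out, log2 fold changes ran from -0.25 to 0.26 for Abca3, -0.81 to 0.68 for Abca4, -0.23 to 1.54 for Abca8b, -0.58 to 1.00 for Abca9, -0.24 to 0.023 for Abcb1b, -0.081 to 0.082 for Abcb8, -0.46 to 0.53 for Abcb9, -0.35 to 0.076 for Abcc10, -0.057 to 1.01 for Abcc12, -0.30 to 0.77 for Abcc2, -0.011 to 0.18 for Abcf2 and -0.96 to 0.55 for Abcg3. The causes were not tested.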

Other observations

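Tap1 and Tap2, chosen after their values were seen and known as ABC proteins that pump peptides for MHC class I loading, stood apart in IEC-/- replicate 2. Tap1 had 27.5 and 164 CPM in IEC-/- replicates 1 and 2, against 25.8 and 31.2 CPM in IEC+/+ tumours (log2 fold change 1.74, edgeR adjusted p = 0.341). Tap2 had 30.9 and 80.1 CPM in IEC-/- tumours, against 32.3 and 30.8 CPM in IEC+/+ tumours (0.81, adjusted p = 0.424).

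In some ABC members, chosen after their values were seen, libraries of a group differed more than the groups did. Abca9 had 10.2 and 3.43 CPM in IEC-/- tumours, against 5.94 and 4.24 CPM in IEC+/+ tumours. Abcb9 was low in replicate 1 of both groups, and Abcg3 low in replicate 2 of both. The Abca5, Abca6, Abca8a, Abca8b and Abca9 genes lie together on chromosome 11, between 109932190 and 110337716, and 3 of these 5 were tested.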
